A study of Mus musculus with 2 samples.

Results

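Kit, Tfrc and Cd24a encode CD117, CD71 and CD24, the 3 surface antigens by which the fetal liver red cell progenitors of this study were described or stained. They were chosen by that role, though with earlier results of these data known, and are 3 of the 17608 genes in the deposited table. All 3 were found in it. Kit is the receptor tyrosine kinase for stem cell factor, and its signal keeps early red cell progenitors alive and dividing. Tfrc is the transferrin receptor, which carries iron-loaded transferrin into the cell and is most abundant on developing red cells, which need iron for heme. Cd24a encodes a small, heavily glycosylated protein held in the membrane by a glycosylphosphatidylinositol anchor, and is used with CD71 to stage red cell progenitors. Of the committed progenitors, the burst-forming unit-erythroid, abbreviated BFU-E, comes first, and its descendant is the colony-forming unit-erythroid, abbreviated CFU-E.

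All cells came from the livers of C57BL/6 embryos of stage E14.5, and their cell type label reads CD71/CD24low. The hashed library held 4 isolations under the names FACS CFU-E, FACS BFU-E, PE-high and PE-low (FACS stands for fluorescence-activated cell sorting). Since a magnet was the other isolation method, PE-high and PE-low are read here as the magnet's fractions. In the CITE-seq library, cells had been bound by barcoded antibodies to CD117 and CD71, and they carry the names CS CFUE, CS BFUE or unknown. The sources used here do not give how cells got their names, where the gates lay, what PE and CS abbreviate, or how many embryos were used. The labels also describe growth for 10 days with dexamethasone at 100 uM or with methanol, but not whether the sequenced cells had been through it. Each name is 1 pool of cells and 1 sample, so no test was possible, no p-value is given and no difference has a replicate check.

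The 15-base tags that tie a cell to its isolation, and the tags of both CITE-seq antibodies, are shown because they define the pools and because the antibodies bind the products of Kit and Tfrc. Antibody counts were not analysed here. No tag for CD24 is among them.
CD117 oligo: TGCATGTCATCGGTG
CD71 oligo: ACCGACCAGTAGACA
FACS CFU-E: GTCCGACTAATAGCT
FACS BFU-E: AACCTTTGCCACTGC
PE-high: TATTTCCACCCGGTC
PE-low: CAGGTTGTTGTCATT

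The table held 3357 cells with 6863 to 49971 unique molecular identifiers (UMIs, 1 per captured transcript) each, and 0 cell barcodes were shared between the libraries. FACS CFU-E had 167 cells with a median of 38377 UMIs, FACS BFU-E 233 (31594), PE-high 294 (38663.5), PE-low 208 (34354), CS CFUE 195 (37589), CS BFUE 122 (23449) and unknown 2138 (28845.5), of which 2136 were in the CITE-seq library. The erythroid marker list of 8 genes summed to between 1152 and 1563 CPM (counts per 1000000 UMIs of the pool) in the CFU-E named pools and PE-high, and to between 312.6 and 488.1 in the BFU-E named pools and PE-low. The myeloid list of 13 genes summed to 8.99 CPM in FACS CFU-E (5 genes at 0), 1549 in FACS BFU-E, 317.3 in PE-high, 1037 in PE-low, 19.1 in CS CFUE and 771.4 in CS BFUE. Cells with 10 or more UMIs of that list, called cells with myeloid UMIs below, made up 0 of 167 FACS CFU-E cells, 78 of 233 FACS BFU-E cells, 20 of 294 PE-high cells, 54 of 208 PE-low cells, 3 of 195 CS CFUE cells and 42 of 122 CS BFUE cells. The mast cell list, a cell type rich in Kit, held 4 genes in the table and summed to 0.321 CPM in FACS CFU-E (3 of them at 0) and 15.1 in FACS BFU-E, 4.18 in PE-high and 9.32 in PE-low, and 0.683 in CS CFUE and 28.0 in CS BFUE. The megakaryocyte, lymphoid and endothelial lists were also lower in the later pool of each pair, at 0.161 to 11.7 CPM in later pools and 18.1 to 42.4 in earlier ones. Globin transcripts summed to 1589 CPM in PE-high, 524.8 in FACS CFU-E and 3322 in unknown. The hepatocyte list summed to 136.4 CPM in CS CFUE, 28.3 in CS BFUE and 131.9 in unknown, against 1.93 to 3.12 in the 4 hashed pools. What these other transcripts contribute to the values below was tested only by leaving out the cells with myeloid UMIs.

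Kit, the receptor for stem cell factor on chromosome 5 (chr5:75574987-75656722, build GRCm38.p6), was lower in every later pool than in its earlier partner. Its level was 42.5 CPM (95% exact Poisson interval 37.6 to 48.0) in FACS CFU-E against 97.1 (90.1 to 104.5) in FACS BFU-E. It was 46.3 (42.3 to 50.5) in PE-high and 77.8 (71.4 to 84.6) in PE-low, and 70.8 (64.8 to 77.2) in CS CFUE and 118.6 (106.5 to 131.6) in CS BFUE. Unknown cells stood at 51.8 (50.02 to 53.6). In descending order of level the pools ran CS BFUE, FACS BFU-E, PE-low, CS CFUE, unknown, PE-high and FACS CFU-E, and 2 pairs of neighbours, PE-low with CS CFUE and PE-high with FACS CFU-E, had a ratio whose interval held 1. All intervals here cover counting error only. Within pools the single cells overlapped widely. Per-cell Kit ranged from 0 to 243.4 CPM with a median of 32.8 in FACS CFU-E, and from 0 to 343.1 with a median of 90.9 in FACS BFU-E.

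Tfrc, the transferrin receptor on chromosome 16 (chr16:32608896-32632794), was higher in every later pool than in its earlier partner. Its level was 325.6 CPM (311.5 to 340.0) in FACS CFU-E against 82.0 (75.6 to 88.8) in FACS BFU-E. It was 303.0 (292.8 to 313.5) in PE-high and 107.4 (99.9 to 115.3) in PE-low, and 276.0 (264.1 to 288.3) in CS CFUE and 58.6 (50.2 to 68.0) in CS BFUE. Unknown cells, at 275.6 (271.5 to 279.8), could not be told from CS CFUE, and every other pair of neighbours in the order of levels differed beyond the interval. The median FACS CFU-E cell held 304.1 CPM (0 to 773.9 over the pool) and the median FACS BFU-E cell 60.3 (0 to 564.2).

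Cd24a, on chromosome 10 (chr10:43579169-43584265), moved in the same direction as Tfrc. Its level was 374.3 CPM (359.3 to 389.8) in FACS CFU-E against 47.3 (42.5 to 52.6) in FACS BFU-E. It was 377.7 (366.3 to 389.4) in PE-high and 70.7 (64.7 to 77.2) in PE-low, and 293.9 (281.6 to 306.6) in CS CFUE and 65.0 (56.2 to 74.9) in CS BFUE, with 351.3 (346.7 to 356.0) in unknown. PE-high with FACS CFU-E, and PE-low with CS BFUE, were neighbours whose ratio held 1. Every FACS CFU-E cell held Cd24a, from 83.2 to 1016 CPM with a median of 352.7, whereas FACS BFU-E cells ran from 0 to 427.3 with a median of 29.2. PE-high had the wider spread of the 2 higher hashed pools, from 0 to 1753 CPM. Under the label CD71/CD24low, pools held up to 325.6 CPM of Tfrc RNA and 377.7 of Cd24a RNA. The label names surface antigens, whose amounts were not analysed here, and no pool labelled high was at hand. These RNA levels therefore cannot be set against the label.

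**Figure D1:**
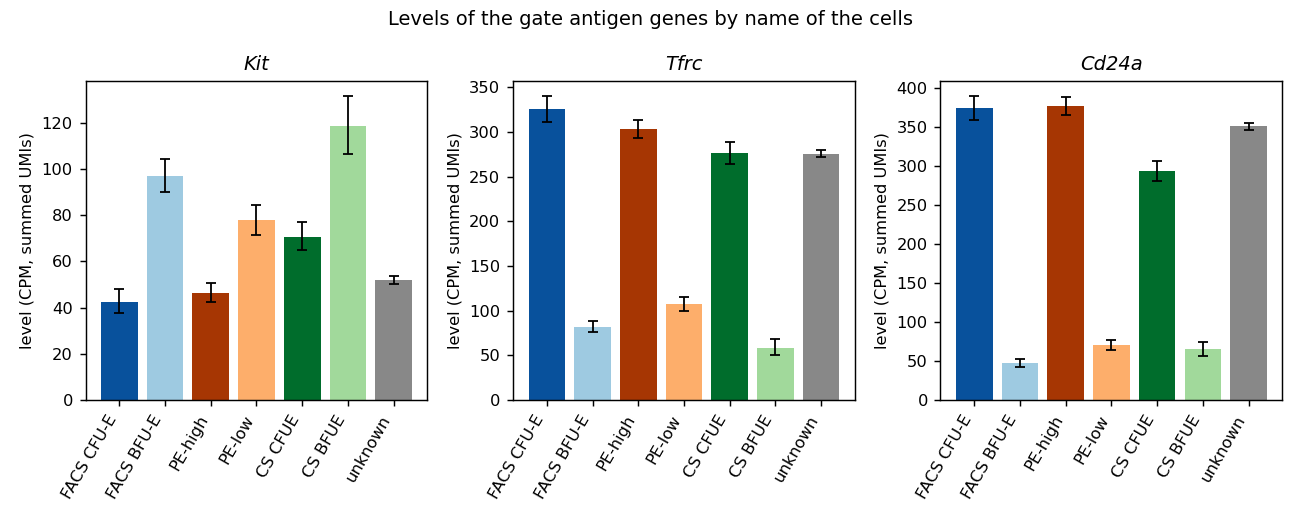
Level (CPM, linear axis from 0) of Kit, Tfrc and Cd24a in each named pool, with 95% exact Poisson intervals that cover counting error only. Kit stands at 42.5 in FACS CFU-E against 97.1 in FACS BFU-E, while Tfrc stands at 325.6 and 82.0 and Cd24a at 374.3 and 47.3 in the same pools.

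The first question was how each gene differs between the later and the earlier pool of each isolation. In FACS CFU-E over FACS BFU-E, Kit was 2.28-fold lower (95% exact conditional binomial interval 1.98 to 2.64), Tfrc 3.97-fold higher (3.62 to 4.35) and Cd24a 7.91-fold higher (7.07 to 8.88). Genes with a ratio of 1.5 or more in either direction are called past 1.5-fold, which is a set size with no test behind it. All 3 genes were past it, as were 18.7% of the 3476 genes compared (9.15% higher and 9.58% lower in FACS CFU-E). Cd24a ranked 19th and Tfrc 49th among these genes by highest ratio, and Kit 147th from the lowest. In PE-high over PE-low, Kit was 1.68-fold lower (1.49 to 1.90), Tfrc 2.82-fold higher (2.61 to 3.06) and Cd24a 5.34-fold higher (4.87 to 5.87). All 3 were past 1.5-fold, against 12.8% of 3443 genes (5.84% higher, 6.94% lower), with Cd24a at rank 14 and Tfrc at rank 48 from the highest. In CS CFUE over CS BFUE, Kit was 1.68-fold lower (1.46 to 1.92), Tfrc 4.71-fold higher (4.03 to 5.53) and Cd24a 4.52-fold higher (3.90 to 5.27). All 3 were past 1.5-fold, against 19.5% of 3077 genes (10.7% higher, 8.77% lower). Cd24a thus had the higher ratio of the pair in both hashed comparisons, while in the CITE-seq library the intervals of Tfrc and Cd24a overlapped.

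Without the cells with myeloid UMIs the stage ratio of Tfrc was 3.14 in FACS CFU-E over FACS BFU-E, 2.44 in PE-high over PE-low and 3.52 in CS CFUE over CS BFUE, all nearer to 1. The cells left out held 57.7 CPM of Kit, 45.0 of Tfrc and 49.0 of Cd24a, against 59.0, 268.5 and 325.3 in the other 3024 cells. Their Kit level was therefore close to that of the rest, and their Tfrc and Cd24a levels were low. The remaining 155 FACS BFU-E cells stood at 103.7 CPM of Kit, 103.7 of Tfrc and 52.7 of Cd24a.

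The second question was whether pools of the same stage differ between isolation methods. These comparisons share the FACS pools with those above. In PE-low over FACS BFU-E none of the 3 genes was past 1.5-fold, where 0.796% of 3267 genes were (0.306% higher, 0.49% lower). Kit was 1.25-fold lower (1.12 to 1.40), Tfrc 1.31-fold higher (1.18 to 1.46) and Cd24a 1.49-fold higher (1.30 to 1.72), with Cd24a the 11th highest ratio and Kit the 56th lowest of all genes compared. Without cells with myeloid UMIs the Cd24a ratio was 1.58, past 1.5-fold. Of the 3267 genes compared without these cells, 2 were past it higher and 9 lower. In the other settings tried the Cd24a ratio stayed under 1.5. In PE-high over FACS CFU-E, where 0.829% of 3257 genes were past 1.5-fold (0.706% higher, 0.123% lower), the ratio was 1.09 (0.936 to 1.27) for Kit, 0.931 (0.881 to 0.984) for Tfrc and 1.01 (0.959 to 1.06) for Cd24a. Kit fell under the level filter in that comparison, with less than 50 CPM in both pools. In CS BFUE over FACS BFU-E, where 18.0% of 3230 genes were past 1.5-fold (5.05% higher, 12.9% lower), the ratio was 1.22 (1.07 to 1.39) for Kit, 0.715 (0.600 to 0.847) for Tfrc and 1.37 (1.15 to 1.64) for Cd24a, so none was past it. Within bin 2 of the coordinate described below (64 CS BFUE and 81 FACS BFU-E cells), the same ratio was 1.12 (0.923 to 1.36) for Kit. It was 1.34 (1.05 to 1.72) for Tfrc, opposite to that of the whole pools, and 2.11 (1.499 to 3.00) for Cd24a. Within bin 1 lay 46 CS BFUE and 67 FACS BFU-E cells, of which 41 and 67 held myeloid UMIs. There the ratio was 0.66 (0.36 to 1.14) for Tfrc, on the side of the whole pools with an interval that held 1. It was 1.30 (1.01 to 1.67) for Kit and 1.81 (1.29 to 2.54) for Cd24a. Both bins are wide, and position inside them was not matched. In CS CFUE over FACS CFU-E Kit was 1.67-fold higher (1.43 to 1.94), past 1.5-fold like 11.3% of 3212 genes (4.51% higher, 6.76% lower), while Tfrc stood at a ratio of 0.848 (0.797 to 0.902) and Cd24a at 0.785 (0.740 to 0.833). The CITE-seq and FACS pools were separate libraries, and the median log2 ratio of all genes between them was -0.26 for the BFU-E names and -0.23 for the CFU-E names.

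Detection in single cells was compared after each cell was thinned to 10000 UMIs, which left out 7 shallower cells, all of them unknown. Kit had a UMI in 30.5% of FACS CFU-E cells and 59.2% of FACS BFU-E cells (70.1% and 88.4% before thinning). Tfrc had one in 91.6% of FACS CFU-E cells and 47.6% of FACS BFU-E cells (97.6% and 73.8% before thinning). Cd24a had one in 97.0% of FACS CFU-E cells and 30.0% of FACS BFU-E cells (100% and 58.8% before thinning). The lowest share of Kit was 4.78%, in the thinned cells of the last bin of the coordinate described below, which may have been made with Kit and so is no independent background. No cell type that surely lacks any of the 3 genes was at hand. In cells with myeloid UMIs (median 24614 UMIs) the thinned share was 32.9% for Tfrc and 29.0% for Cd24a, so the FACS BFU-E share of Cd24a lay close to the share in those cells.

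The joint pattern differed by stage. Kit alone of the 3 genes was seen in 0 of 167 FACS CFU-E cells, which allows a share of up to 2.19%, and in 23.6% of FACS BFU-E cells (55 of 233). It was seen in 1.02% of PE-high and 16.3% of PE-low cells, and in 0.513% of CS CFUE and 26.2% of CS BFUE cells. Tfrc and Cd24a together without Kit were seen in 61.7% of FACS CFU-E and 6.87% of FACS BFU-E cells, 54.1% of PE-high and 13.0% of PE-low cells, and 42.1% of CS CFUE and 7.38% of CS BFUE cells. All 3 genes were seen in 26.9% of FACS CFU-E and 10.3% of FACS BFU-E cells, 26.9% of PE-high and 12.0% of PE-low cells, and 41.0% of CS CFUE and 12.3% of CS BFUE cells. Among cells with Kit and 1 other gene, Kit with Tfrc was the more frequent pair in FACS BFU-E (18.5%, against 6.87% for Kit with Cd24a) and in PE-low (18.8%, against 2.88%). In the FACS pools these shares lay close to the product of the single-gene detection rates. That product for all 3 genes was 27.1% in FACS CFU-E cells and 8.48% in FACS BFU-E cells, and for Tfrc and Cd24a without Kit 61.7% in FACS CFU-E cells and 5.84% in FACS BFU-E cells. The match was looser in some other pools. In CS BFUE, Kit with Cd24a but not Tfrc was seen in 9.84% of cells and the product was 16.8%. In PE-low the same combination was seen in 2.88% of cells against a product of 7.05%, and Tfrc alone in 12.5% against 19.07%. In PE-high, cells with none of the 3 genes made up 3.40% against 0.909%. The shares depend on depth: at 20000 UMIs per cell all 3 genes were seen in 54.4% of the FACS CFU-E cells and 26.2% of the FACS BFU-E cells deep enough.

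**Figure D2:**
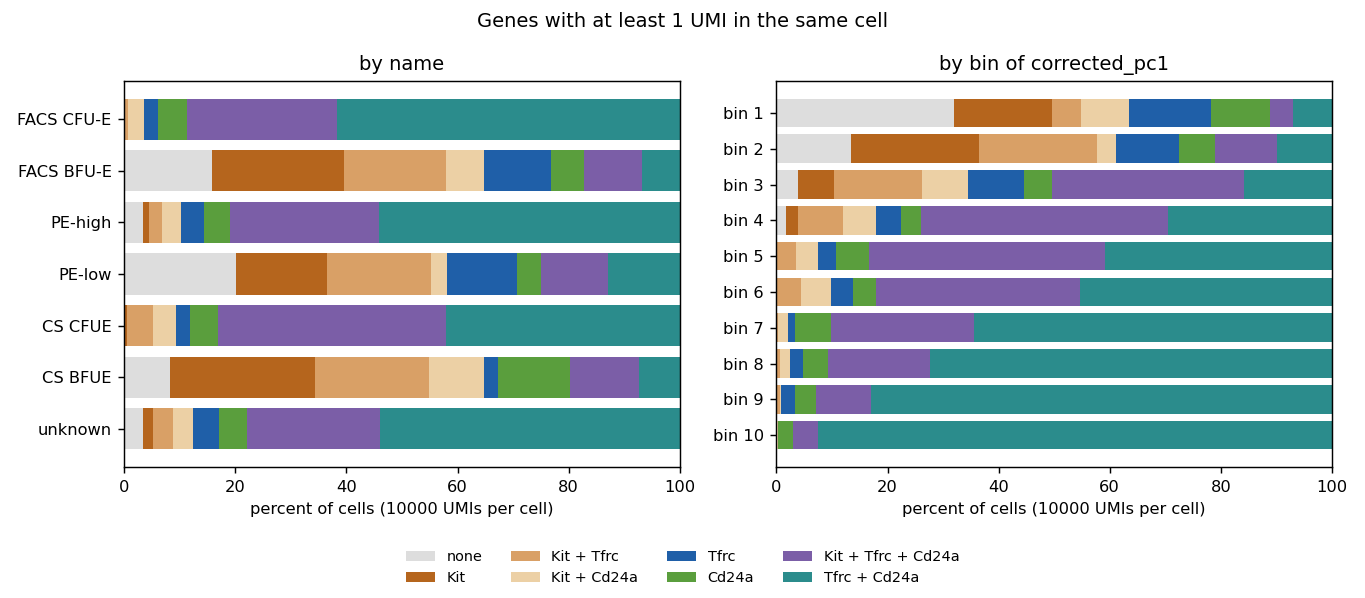
Percent of cells in which each combination of Kit, Tfrc and Cd24a had at least 1 UMI after thinning to 10000 UMIs, by name (left) and by bin of 10 equal bins along corrected_pc1 (right). Cells with Kit alone make up 0% of FACS CFU-E and 23.6% of FACS BFU-E, and cells with Tfrc and Cd24a but no Kit reach 92.5% in the last bin.

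Counted over all their UMIs without thinning, the make-up of the 3 genes' transcripts separated the pools in the same way. Kit supplied 5.73% of the 3-gene UMIs in FACS CFU-E against 42.9% in FACS BFU-E, 6.36% in PE-high and 30.4% in PE-low, and 11.1% in CS CFUE and 49.0% in CS BFUE. Cells in which Kit supplied over 50% of these UMIs numbered 0 of 167 in FACS CFU-E and 84 of 228 in FACS BFU-E, 6 of 292 in PE-high and 61 of 198 in PE-low, and 1 of 195 in CS CFUE and 49 of 121 in CS BFUE (cells with a UMI of any of the 3). The number of Cd24a UMIs per Tfrc UMI, which is set between pools here and does not rank the genes, was 1.15 (1.08 to 1.22) in FACS CFU-E against 0.577 (0.504 to 0.659) in FACS BFU-E. It was 1.25 in PE-high and 0.658 in PE-low. In the CITE-seq library it was 1.07 (1.00 to 1.13) in CS CFUE and 1.11 (0.899 to 1.37) in CS BFUE, intervals that overlap.

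Across cells the genes were weakly related. Over 3350 thinned cells of both libraries, Pearson's r on log2(UMIs + 1) was -0.13 for Kit with Tfrc, -0.25 for Kit with Cd24a and 0.44 for Tfrc with Cd24a. These cells share libraries and span all stages. Within a single bin of the coordinate and a single library the median r over 20 such groups was 0.04, -0.02 and 0.05 for the same pairs. Tfrc with Cd24a stood at 0.35 in PE-high and 0.33 in PE-low, 0.04 in FACS CFU-E against 0.18 in FACS BFU-E, and 0.05 in CS CFUE and 0.14 in CS BFUE. With cells with myeloid UMIs left out, it was 0.19 in PE-high and 0.30 in PE-low. In counts this sparse a weak value of r is no finding.

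The order of change was read along corrected_pc1, the first of 2 principal component coordinates that the authors deposited for each cell. FACS CFU-E had a median of -6.96 on it and FACS BFU-E 9.43, PE-high -6.08 and PE-low 7.78, and CS CFUE -5.59 and CS BFUE 11.7. All cells were cut into 10 bins of equal cell number from the highest value (bin 1) to the lowest (bin 10). The bins differ in width: bin 2 ran from 26.5 to 4.34 and bin 3 from 4.31 to 0.124. Cells of 1 bin can therefore still differ in position. The coordinate was made by the authors from expression and may have used the 3 genes, so the profiles are a description. Bin 1 was mostly cells with myeloid UMIs (307 of 336), bin 2 held 26 of them and later bins 0. Bin 10 was mostly unknown cells (289 of 335), with 44 PE-high and 2 FACS CFU-E cells. The end values of the profiles therefore rest mainly on cells without a stage name.

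Over both libraries Kit was highest in bin 3 and lowest in bin 10. It stood at 59.1 CPM in bin 1 (84.1, interval 60.9 to 113.3, in the 29 cells there without myeloid UMIs), 95.7 in bin 2 and 116.5 (110.3 to 123.0) in bin 3. It then stood at 89.5, 72.7, 57.7, 42.1, 26.9 and 11.02 in bins 4 to 9, and at 4.40 (3.14 to 5.99) in bin 10, a range of 26.5-fold between highest and lowest. Over all cells the interval of every step from bin to bin excluded 1. The steepest steps were the last 2, where the level of a bin was 0.410 (0.327 to 0.512) and 0.399 (0.271 to 0.577) of that of the bin before. Without cells with myeloid UMIs bin 2 stood at 98.9 (92.35 to 105.8), an interval that overlapped that of bin 1. In the CITE-seq library Kit stood at 89.2 in bin 2 and 127.1 in bin 3. In the hashed library it stood at 102.0 (93.1 to 111.6) and 98.7 (89.4 to 108.6), so no rise into bin 3 was seen there.

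Tfrc changed earliest. It stood at 37.8 CPM in bin 1, 89.8 in bin 2, 164.6 in bin 3, 226.4 in bin 4 and 271.1 in bin 5. Over all cells its largest step was the first, 2.38-fold (2.08 to 2.71). Without cells with myeloid UMIs it stood at 52.8 (34.8 to 76.8) in the 29 cells of bin 1, 86.4 in bin 2 and 164.6 in bin 3. By these point values the step into bin 3 was larger than the first. From bin 5 Tfrc rose slowly, over 277.2, 301.8, 321.1 and 350.5 in bins 6 to 9 to 428.4 (415.1 to 442.1) in bin 10. Between bins 5 and 6 the ratio was 1.02 (0.973 to 1.08), the only step of the 3 genes over all cells whose interval held 1.

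Cd24a rose at every step over all cells. It stood at 47.1 CPM in bin 1 and 66.5 in bin 2, then at 127.4 in bin 3, a step of 1.92-fold (1.74 to 2.11), its largest. The first step turned round without cells with myeloid UMIs: the 29 remaining cells of bin 1 stood at 178.0 CPM (143.3 to 218.5) and the 310 of bin 2 at 58.5 (53.5 to 63.9). In the same cells Tfrc stood at 52.8 (34.8 to 76.8) in bin 1 and 86.4 (80.3 to 92.9) in bin 2. Over all cells Cd24a went on through 212.9, 263.0, 305.8, 360.9, 423.0 and 507.0 in bins 4 to 9, and reached 719.3 (702.0 to 736.9) in bin 10. Its last step was 1.42-fold (1.37 to 1.47), against 1.22-fold (1.17 to 1.28) for Tfrc.

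**Figure D3:**
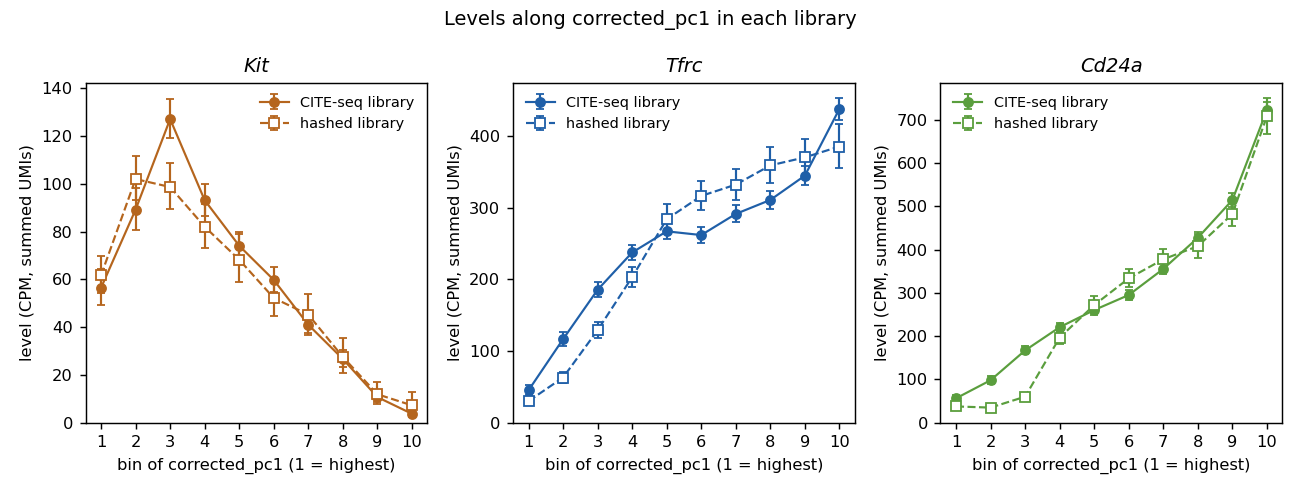
Level (CPM, linear axis from 0) of Kit, Tfrc and Cd24a in 10 bins of equal cell number along corrected_pc1, in the CITE-seq library (filled, solid) and the hashed library (open, dashed), with 95% exact Poisson intervals. Over both libraries Kit is highest in bin 3 at 116.5, Tfrc reaches 271.1 by bin 5, and Cd24a climbs to 719.3 in bin 10.

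The position at which a gene stood midway between its lowest and highest bin was used to put the genes in order. Counted as a percentile of cells from the highest corrected_pc1, it was 36.5 for Tfrc, 53.1 for Kit (falling) and 68.6 for Cd24a. Tfrc came first in 11 of 11 settings tried. The rule covers only the path between a gene's highest and lowest bin. For Kit over all cells that was the fall from bin 3 to bin 10. The rise of Kit from bin 1 to bin 3 was not placed, so these positions do not order it against the rise of Tfrc. The order of Kit and Cd24a was not fixed: Kit came before Cd24a in 8 settings and after it in 3. On a log2 scale the positions were 20.8 for Tfrc, 32.2 for Cd24a and 76.9 for Kit, since a log scale places a gene that ends near 0 later and a gene that keeps rising earlier. In the hashed library alone they were 50.8 for Tfrc, 64.3 for Cd24a and 65.2 for Kit. These are percentiles of its own 904 cells, cut into their own bins, and cannot be set against percentiles of all cells. On the bins of all cells, Kit of the hashed library fell past midway between bins 5 (68.2 CPM) and 6 (52.2). Its Cd24a rose past midway between bins 6 (333.4) and 7 (377.5), which puts Kit first there. With the last bin left out they were 29.8 for Tfrc, 48.3 for Cd24a and 50.9 for Kit. A first component made from 8650 genes without these 3, with Pearson's r of 0.95 to corrected_pc1 over the 3357 cells, gave 34.5 for Tfrc, 50.02 for Kit and 53.9 for Cd24a. On that component Kit kept 19.4 CPM in the last bin, so its near absence at the end depends on the coordinate.

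Single-cell combinations were counted in the same bins. They depend on the detection rates of the single genes and are no separate evidence for the order. Kit with Tfrc but no Cd24a was seen in 71 of 334 thinned cells of bin 2 (21.26%, where the product of the rates was 21.75%). Kit with Cd24a but no Tfrc was seen in 11 (3.29%, product 8.40%). Cells with all 3 genes made up 4.22% of bin 1, 11.1% of bin 2, 34.5% of bin 3, 44.5% of bin 4, the highest share, and 4.48% of bin 10. Tfrc and Cd24a without Kit were seen in 92.5% of bin 10. The number of Cd24a UMIs per Tfrc UMI was 0.741 (0.667 to 0.822) in bin 2, 0.774 in bin 3, 0.940 in bin 4 and 1.10 in bin 6, and it ended at 1.68 (1.61 to 1.75) in bin 10. Bin 1 stood at 1.25 (1.07 to 1.45). Leaving out cells with myeloid UMIs, the ratio was 3.37 in the 29 cells of bin 1 and 0.677 in bin 2.

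**Figure D4:**
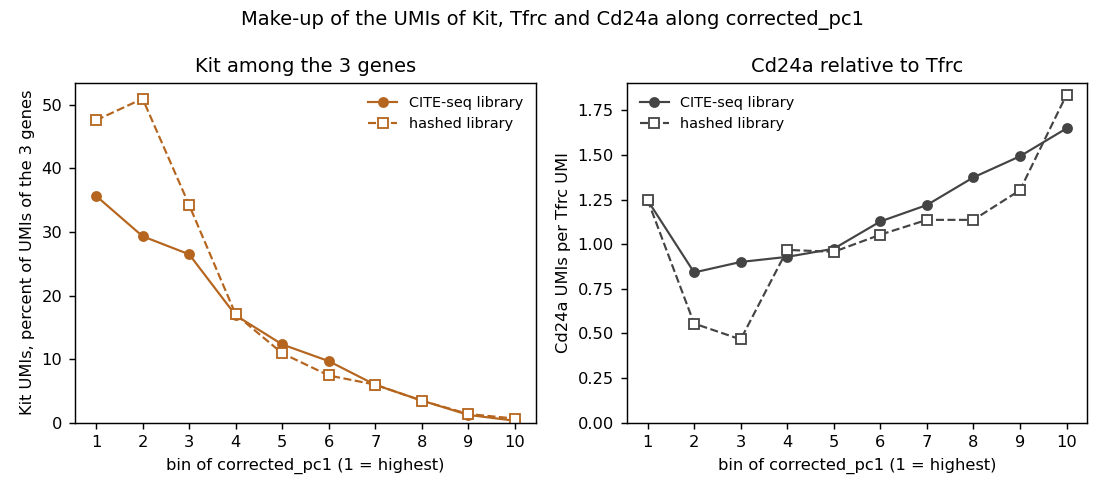
Left, Kit UMIs as a percent of the UMIs of Kit, Tfrc and Cd24a. Right, Cd24a UMIs per Tfrc UMI. Both are plotted against the 10 bins of corrected_pc1 for the CITE-seq library (filled, solid) and the hashed library (open, dashed). In bin 3 the Cd24a to Tfrc ratio is 0.900 in the CITE-seq library and 0.467 in the hashed library.

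The pools were then compared within the same bin. Within FACS CFU-E, Kit stood at 68.0 CPM in bin 5, 51.1 in bin 6, 49.6 in bin 7, 29.1 in bin 8 and 12.8 in bin 9, so a pool named as 1 stage covered a 5-bin gradient. Within PE-high it stood at 84.3 in bin 4 and 5.82 in bin 10. PE-high had 17.01% of its cells in bin 4 and 14.97% in bin 10, where FACS CFU-E had 0.599% and 1.198%. At the same bin the Kit ratio of PE-high over FACS CFU-E was 1.05, 1.03, 0.754, 0.905 and 0.891 in bins 5 to 9, and all these intervals held 1. The Tfrc ratio held 1 in bins 6 and 8, but was 1.25 (1.04 to 1.52) in bin 5, 1.24 (1.09 to 1.42) in bin 7 and 0.857 (0.747 to 0.985) in bin 9. For PE-low over FACS BFU-E, the intervals of all 3 genes held 1 in bins 2 and 3. In bin 4 (27 and 19 cells) the Tfrc ratio was 1.30 (1.02 to 1.66), and those of Kit and Cd24a held 1. In bin 3 their Tfrc levels were 129.0 CPM in PE-low and 128.7 in FACS BFU-E, and their Cd24a levels 67.1 (54.8 to 81.3) and 55.2 (46.3 to 65.3). In bin 1, where 51 of 52 PE-low and 67 of 67 FACS BFU-E cells held myeloid UMIs, the Kit level was 41.5 in PE-low and 82.4 in FACS BFU-E, a ratio of 0.504 (0.375 to 0.671). In bin 4, where 50 PE-high and 27 PE-low cells lay, Cd24a stood at 251.5 in PE-high and 132.6 in PE-low, a ratio of 1.90 (1.58 to 2.30), while Tfrc had a ratio of 1.08 (0.918 to 1.28) and Kit of 1.02 (0.788 to 1.33). The Cd24a interval thus excluded 1 in this shared bin and did not overlap that of Tfrc.

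Compared bin by bin, the 2 libraries differed most in Cd24a, in bins 2 and 3, where position inside a bin was not matched. The Cd24a level of the CITE-seq library over the hashed library was 2.80-fold (2.34 to 3.37) in bin 2 and 2.77-fold (2.42 to 3.19) in bin 3, but 1.12-fold (1.03 to 1.22) in bin 4 and between 0.885 and 1.07 in bins 5 to 10. For Tfrc the ratio was 1.85 (1.60 to 2.14) in bin 2, 1.44 (1.30 to 1.59) in bin 3 and 1.17 (1.08 to 1.27) in bin 4, and 0.827 to 0.877 in bins 6 to 8. Kit differed less, with 0.875 (0.765 to 0.999) in bin 2 and 1.29 (1.15 to 1.45) in bin 3. Without cells with myeloid UMIs the bin 2 ratio was 2.28 (1.88 to 2.78) for Cd24a and 1.74 (1.49 to 2.02) for Tfrc. By name, Cd24a in bin 3 stood at 110.9 CPM in CS BFUE (12 cells) and 168.7 in unknown, against 67.1 in PE-low and 55.2 in FACS BFU-E. In bin 2 it stood at 53.4 in CS BFUE and 99.8 in unknown, against 27.3 in PE-low and 25.3 in FACS BFU-E. The unknown cells, 109 in bin 2 and 202 in bin 3, were thus the highest in Cd24a in both bins, and CS BFUE lay between them and the hashed pools. Antibody staining, library and gates all differ between these cells and cannot be told apart.

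**Figure D5:**
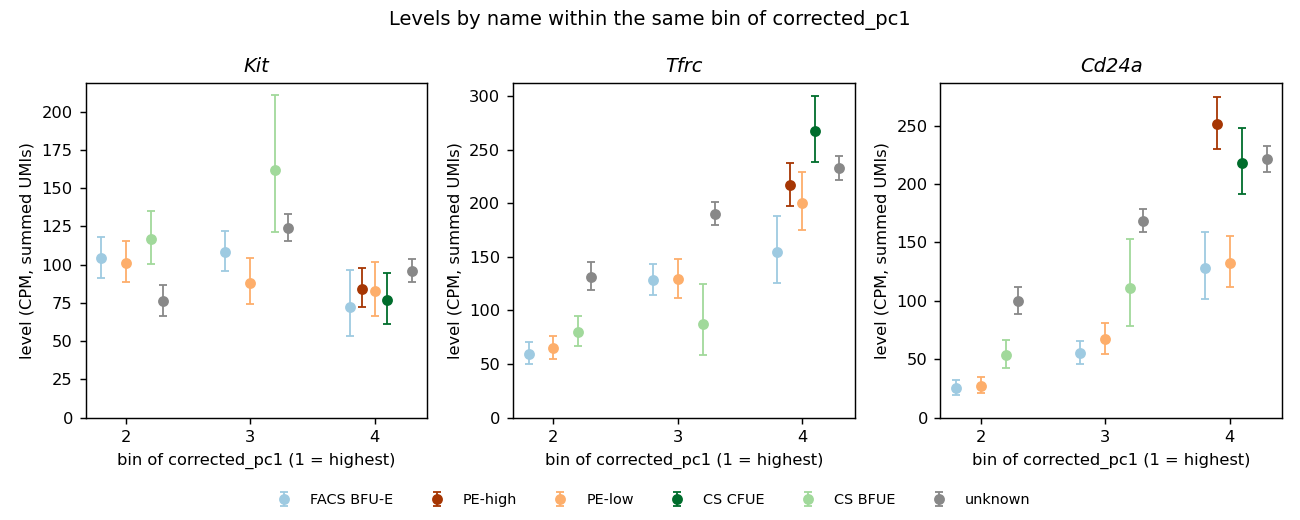
Level (CPM, linear axis from 0) of Kit, Tfrc and Cd24a by name within bins 2, 3 and 4 of corrected_pc1, with 95% exact Poisson intervals, for names with at least 10 cells in the bin (FACS CFU-E has none there). In bin 3 Cd24a is 110.9 in CS BFUE and 168.7 in unknown, against 67.1 in PE-low and 55.2 in FACS BFU-E.

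CS CFUE and FACS CFU-E also differed in position. CS CFUE had 14.4% of its cells in bin 4 and 21.5% in bin 5, against 0.599% and 9.58% of FACS CFU-E. In shared bins the Kit ratio of CS CFUE over FACS CFU-E was 1.42 (1.00 to 2.06) in bin 5, 1.33 (1.00 to 1.76) in bin 6, 0.895 (0.636 to 1.26) in bin 7 and 1.54 (0.867 to 2.69) in bin 8, against 1.67 over the whole pools. The Cd24a ratio was 0.797 (0.667 to 0.955) in bin 5, 0.836 (0.741 to 0.943) in bin 6, 0.890 (0.790 to 1.00) in bin 7 and 1.15 (0.977 to 1.35) in bin 8. The Tfrc ratio was 1.32 (1.10 to 1.60) in bin 5, opposite in direction to the 0.848 of the whole pools, and 0.728 (0.639 to 0.828) in bin 6, 0.918 (0.804 to 1.05) in bin 7 and 0.961 (0.800 to 1.15) in bin 8.

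The partners of each antigen were read from lists of related genes. A gene under 50 CPM in 1 pool could enter a comparison only by being higher in the other, which limits these counts. Of 19 genes of KIT signalling, 8 passed the level filter in FACS CFU-E over FACS BFU-E, and 5 were past 1.5-fold lower and 0 higher (median log2 ratio -0.62, against 0.04 over all genes, of which 9.58% were lower). Ptpn6, a phosphatase that restrains KIT signalling, stood at 16.7 CPM in FACS CFU-E against 83.5 in FACS BFU-E, and Grb2, an adaptor, at 68.0 and 178.4. Cbl, a ubiquitin ligase, stood at 30.2 and 54.6, and Stat5a, a signal-carrying transcription factor, at 35.8 and 56.4. In PE-high over PE-low 3 of the 7 that passed were lower (6.94% of all genes), and in CS CFUE over CS BFUE 2 of 6 (8.77% of all genes), with 0 higher in both. Ptpn6 and Grb2 were lower in all 3 comparisons. Without cells with myeloid UMIs, 4 of 8, 3 of 7 and 2 of 5 were lower in these comparisons and 0 higher, and the FACS ratio of Ptpn6 was 0.258, against 0.200 with them.

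Of 20 genes of the transferrin cycle and iron handling, 13 passed in FACS CFU-E over FACS BFU-E, and 7 were higher and 0 lower (median 0.65), where 9.15% of all genes were higher. Fth1, the ferritin heavy chain, stood at 5500 CPM in FACS CFU-E against 2302 in FACS BFU-E, and Ftl1, the light chain, at 1500 and 767.1. Slc25a37, the mitochondrial iron importer mitoferrin, stood at 73.0 and 26.0, and Picalm, which helps form the clathrin-coated vesicles that take up transferrin, at 110.7 and 53.4. In PE-high over PE-low 4 of 13 were higher (median 0.48, against 0.02 over all genes, 5.84% of them higher), and in CS CFUE over CS BFUE 6 of 10 (median 0.91, against 0.07 and 10.7%), with 0 lower in both. Without cells with myeloid UMIs, 5 of 12, 4 of 12 and 6 of 10 were higher and 0 lower. None of the 8 genes listed for the glycosylphosphatidylinositol anchor, the kind that CD24 carries, passed the level filter in any comparison.

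Among 21 other surface antigens, 10 passed in FACS CFU-E over FACS BFU-E, with 5 higher and 2 lower (median 0.68). Rhd, a Rh blood group protein, stood at 369.0 CPM in FACS CFU-E against 41.1 in FACS BFU-E. Cd34, found on stem cells and early progenitors, stood at 0.321 and 92.2, and Cd48, of the same family as the SLAM receptors, at 1.93 and 78.7. The 5 higher and 2 lower counts recurred in PE-high over PE-low and in CS CFUE over CS BFUE, and Cd34 and Cd48 were the lower genes each time. Without cells with myeloid UMIs 5 were higher and 0 lower in all 3 comparisons, with Cd34 and Cd48 under the level filter in both pools of each. Their ratios stayed under 1 without these cells. For Cd34 it was 0.118 in FACS CFU-E over FACS BFU-E, against 0.00348 with them, 0.153 (against 0.158) in PE-high over PE-low and 0.0133 (against 0.0246) in CS CFUE over CS BFUE. FACS CFU-E held 0 such cells, so most Cd34 UMIs of FACS BFU-E lay in the cells left out. The Cd34 level of FACS CFU-E was also under the 0.481 CPM that 3 UMIs make in that pool. For Cd48 the 3 ratios were 0.0500 (against 0.0245), 0.125 (against 0.193) and 0.0318 (against 0.0291). Of 13 genes taken as regulators of Kit and Tfrc, 12 passed, with 3 higher and 4 lower in FACS CFU-E (median 0.04, as over all genes). Klf1, a transcription factor of red cell genes, stood at 489.7 in FACS CFU-E against 196.8 in FACS BFU-E. Myb, a transcription factor of immature blood cells, stood at 108.3 and 371.1, Runx1 at 28.1 and 91.4, and Spi1, which drives myeloid genes, at 3.21 and 91.7. In PE-high over PE-low 2 were higher and 4 lower of 12, and in CS CFUE over CS BFUE 5 and 2 of 10. Without cells with myeloid UMIs the higher and lower counts were 2 and 3 of 11, 1 and 2 of 10, and 2 and 1 of 9. The FACS ratio was then 0.323 for Spi1, against 0.0350 with these cells, and 0.503 for Runx1, against 0.307.

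Likeness of profile was measured by Pearson's r of log2(CPM + 10) over 20 groups, the 10 bins in each library, among 2933 genes with a mean of at least 50 CPM. These groups share the coordinate and the libraries, so the values are a description. The 5 genes most like Kit were Myb (0.97), Ifngr1 (0.97), AI506816 (0.96), Myc (0.96) and Cbfa2t3 (0.95), and the most opposed were Dek (-0.96), Slc25a37 (-0.96), Arf5 (-0.95), mt-Nd2 (-0.94) and Birc5 (-0.94). Myc and Myb are transcription factors of dividing progenitors, Cbfa2t3 a corepressor, and Ifngr1 a chain of the interferon gamma receptor. Most like Tfrc were Phf10 (0.99), Rhag (0.99), Rhd (0.99), Lmna (0.99) and Rfesd (0.99), of which Rhag and Rhd are Rh proteins of the red cell membrane and Lmna encodes lamins A and C. Most opposed to Tfrc were Sh3bgrl3 (-0.99), Mef2c (-0.98), Tpm3 (-0.98), Mtch1 (-0.98) and Aldh2 (-0.98). Most like Cd24a were Cldn13 (0.98), Ubac1 (0.98), Rgcc (0.98), Arhgdig (0.97) and Clcn3 (0.97), and most opposed were Pgls (-0.98), Ifitm2 (-0.98), Arpc1b (-0.97), Cmtm7 (-0.97) and Srgn (-0.96). Rgcc, a cell cycle regulator, stood at 30.4 CPM in bin 1, 76.4 in bin 3 and 719.7 in bin 10. Among the members, Tfrc and Cd24a had an r of 0.95, which made Cd24a the 44th gene by likeness to Tfrc and Tfrc the 25th by likeness to Cd24a. Kit had -0.56 with Tfrc and -0.73 with Cd24a.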

How the data were processed

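Single cells of 2 libraries were sequenced with a 10x 3' version 3 kit, per the labels. The submitters' processing notes name build mm10, Scanpy and Cell Ranger 4.0.0, and no filter on cells is stated in the sources used here. The authors deposited natural log values of 1 plus the count per 10000 UMIs of a cell, as the values show, and 2 principal component coordinates, a score that the header calls corrected. With the log undone, a cell's values were divided by the smallest one above 0 to recover UMIs, and 100% of 16419767 nonzero values came out whole within 0.02. Cells were assigned to a library by barcode suffix and to a pool by deposited name. No doublet caller was run. UMIs were summed per pool or bin and scaled to CPM.

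The members, lists and tests were chosen with earlier results of these data known. The 7 comparisons used genes that reached 50 CPM in either pool and were seen in 10% or more of either pool's cells. A side with 0 UMIs was set to 3 counts. Levels carry 95% exact Poisson, ratios exact conditional binomial and shares exact Clopper-Pearson intervals. Named genes are the 3 members, the 5 most and 5 least like each by profile, and up to 4 of each of 5 lists with the largest FACS CFU-E over FACS BFU-E ratio either way among those that passed the level filter. A gene that this rule names is not reported here. Thinning drew 10000 UMIs per cell without replacement. Gene positions are from RefSeq, GRCm38.p6, the assembly that mm10 denotes, and 17592 of 17608 gene IDs had a symbol. The steps were tested on simulated data. Python 3.11.15, NumPy 2.4.6, pandas 2.3.3 and SciPy 1.17.1 were used.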

Additional observations from a re-analysis of the deposited data

Results flagged for a closer look

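In 2 cases the ratio between pools of the same stage lay on opposite sides of 1 at the 2 stages. Tfrc had a ratio of 0.931 in PE-high over FACS CFU-E and 1.31 in PE-low over FACS BFU-E, with intervals on either side of 1. Cd24a had a ratio of 0.785 in CS CFUE over FACS CFU-E and 1.37 in CS BFUE over FACS BFU-E, likewise. Each pool is 1 sample, and the difference between the ratios was not tested. The CS and FACS pools are in separate libraries, whose staining and gates cannot be told apart from the names. When cells with myeloid UMIs were left out, the Tfrc ratios were 0.972 and 1.25, with levels of 316.6 CPM (305.9 to 327.5) in PE-high and 325.6 (311.5 to 340.0) in FACS CFU-E whose intervals overlap, and the Cd24a ratios were 0.779 and 1.21. The share of cells with myeloid UMIs, which had low Tfrc and Cd24a, was 6.80% for PE-high against 0% for FACS CFU-E, and 26.0% for PE-low against 33.5% for FACS BFU-E. It was 1.54% for CS CFUE and 34.4% for CS BFUE.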

How the results depend on the processing

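No paired analysis was possible because each pool is 1 sample and no pool has a replicate. The 21 member ratios kept their direction under the alternatives tried, and 74 of 84 alternative values lay within the counting interval. Thinning gave 0.371 for Kit in FACS CFU-E over FACS BFU-E, 6.01 for Cd24a in PE-high over PE-low, and 0.961 for Tfrc and 0.734 for Cd24a in CS CFUE over FACS CFU-E. Without cells with myeloid UMIs Tfrc stood at 3.14, 2.44 and 3.52 in the 3 stage comparisons (FACS, PE, CS), and in PE-high over PE-low Kit at 0.523 and Cd24a at 4.72. A mean over cells gave 5.95 for Cd24a in PE-high over PE-low. The largest factor was 1.34. Cd24a passed 1.5-fold in 1 of 5 settings in PE-low over FACS BFU-E (1.58, without cells with myeloid UMIs). In CS BFUE over FACS BFU-E it likewise passed in 1 of 5 (1.535, with thinning). Every other member ratio kept its side of 1.5-fold in all 5. Without the level filter, genes past 1.5-fold numbered 2556 higher and 3988 lower in FACS CFU-E over FACS BFU-E, 1717 and 4937 in PE-high over PE-low, 1536 and 5232 in CS CFUE over CS BFUE, 2045 and 1629 in PE-low over FACS BFU-E, 1912 and 2316 in PE-high over FACS CFU-E, 3115 and 2623 in CS BFUE over FACS BFU-E, and 1720 and 3197 in CS CFUE over FACS CFU-E. Without cells with myeloid UMIs they numbered 2 higher and 9 lower in PE-low over FACS BFU-E, and 13 higher in PE-high over FACS CFU-E. The midway position moved by over 1 bin to 76.9 (Kit), 20.8 (Tfrc) and 32.2 (Cd24a) on the log2 scale. It moved likewise to 48.3 (Cd24a) without the last bin and to 53.9 (Cd24a) on the component without the 3 genes. In the hashed library alone it was 65.2 (Kit) and 50.8 (Tfrc). Those 2 values are percentiles of that library's own cells, so they are not shifts along the bins of all cells. The log2 scale and leaving out the first or the last bin were chosen after seeing the data. Cells with all 3 genes made up, at 6000 UMIs, 12.0% of FACS CFU-E, 3.86% of FACS BFU-E, 10.2% of PE-high, 3.85% of PE-low and 17.4% of CS CFUE. At 20000 UMIs they made up 54.4%, 26.2%, 44.1%, 29.9% and 67.2% of the same pools and 29.0% of CS BFUE. Of the named list genes, 142 alternative ratios lay within the counting interval and 49 did not, and Stat5a in CS CFUE over CS BFUE changed direction with thinning (1.22, against 0.953). The list counts without cells with myeloid UMIs were also added after seeing the data. Depth limits the members where a pool holds few of their UMIs, such as 174 of Tfrc in CS BFUE and 265 of Kit in FACS CFU-E.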

Other observations

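Other transcripts of red cell maturation, chosen for their role and outside the naming rule, put the 3 antigens in context along corrected_pc1. Gata2, a transcription factor of early progenitors, stood at 60.1 CPM in bin 2, 9.40 in bin 3 and 3.97 in bin 4. Gata1, which takes over from it in red cell development, stood at 95.9 in bin 2 and 135.1 in bin 10. Epor, the erythropoietin receptor, stood at 64.5 in bin 2, 98.9 in bin 3, 132.3 in bin 5 and 148.9 in bin 10. Slc4a1, the band 3 anion exchanger of the red cell membrane, stood at 12.8 in bin 8, 51.0 in bin 9 and 196.9 in bin 10, and the globin gene Hba-a1 at 651.9, 1340 and 4005 in the same bins, where Kit stood at 26.9, 11.02 and 4.40. Ireb2 and Aco1 encode the iron regulatory proteins that bind Tfrc transcripts. Ireb2 stood between 24.2 and 31.2 CPM and Aco1 between 12.7 and 19.1 over the 10 bins. These are transcript levels: the activity of the proteins was not measured, and any bearing on the Tfrc level was not tested. Kitl, the ligand of KIT, stood at 2.06 CPM in bin 1 and at 0 in bins 3 to 8.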
